A study of Mus musculus with 17 samples.

Results

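miR-802-5p was read in mouse serum by 2 real-time PCR assays, 1 named for the mouse RNA and 1 for the rat RNA. The assays, mmu-miR-802-5p and rno-miR-802-5p, were found by their names in the deposited table and are 2 of its 357 miRNA assays. The pair was chosen by its measured difference between tumor and tumor-free mice in these same data. That difference is therefore given as a description, without a test. Serum came from 17 mice. The wild-type group held 3 healthy FVB/N mice. The tumor-free group held 7 mice of the AT-ATX line, transgenic for Autotaxin and labelled as having no tumors. The tumor group held 7 AT-ATX mice with spontaneous tumors. The promoter that drives the transgene, the strain background, age and sex of the AT-ATX mice, and the kind and site of the tumors are not given in the sources used here. Wild-type mice differed from tumor mice both in the transgene and in tumors, and these cannot be told apart in that comparison.

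miRNAs are short RNAs that bind messenger RNAs through a seed near their 5′ end and lower the output of those messages. Cells also release them, so serum holds miRNAs from blood cells and from solid organs, the liver among them. miR-802 is known as an epithelial miRNA that is plentiful in liver and is also made in pancreas, kidney and gut. In mouse liver it is raised in obesity. Autotaxin is a secreted enzyme that makes lysophosphatidic acid, a signaling lipid.

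The sequences below show what the assays read and how it differs from the liver miRNAs with which miR-802-5p is compared. They are RefSeq entries on mouse build GRCm38.p6. In the mature RNAs the capitals mark the seed, bases 2 to 8, and in the hairpin they mark both mature arms.
mmu-miR-802-5p: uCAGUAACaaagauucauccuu
mmu-miR-802-3p: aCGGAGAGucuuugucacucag
Mir802 hairpin: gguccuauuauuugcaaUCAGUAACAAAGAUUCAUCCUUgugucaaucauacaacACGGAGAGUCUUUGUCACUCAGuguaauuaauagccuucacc
mmu-miR-192-5p: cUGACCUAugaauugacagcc
mmu-miR-192-3p: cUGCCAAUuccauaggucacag
mmu-miR-194-5p: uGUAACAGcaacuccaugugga
The hairpin lies at chr16:93369720-93369816 on the plus strand. Its 5p arm, the RNA measured here, is at chr16:93369737-93369758 and its 3p arm at chr16:93369775-93369796. The 5p arm takes bases 18 to 39 of the 97-base hairpin and the 3p arm bases 56 to 77. Mir802 overlapped no other annotated gene. Its nearest neighbors were the long noncoding RNA genes 1810053B23Rik and 1700029J03Rik, and the nearest protein-coding genes were Runx1 on one side and Setd4 on the other. miR-192 is encoded at chr19:6264857-6264877 (5p) and chr19:6264900-6264921 (3p), and the Mir194-1 copy of miR-194-5p at chr1:185313325-185313346, all on the plus strand.

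No other assay of the panel shared the miR-802-5p seed, among the 260 of 317 mouse assays matched to a RefSeq mature sequence. Of 1679 mature mouse sequences in the table, miR-802-5p was the 1 entry with that seed. It is also poor in G and C, at 31.8% of its bases against a median of 47.6% over the matched panel assays, and 13 of those assays lay at or below it. Only the 5p arm was on the panel. The rat sequence is named only.

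A Ct value is the PCR cycle at which an assay's signal crosses a threshold, so a lower Ct means more RNA, by about a factor of 2 per cycle. Raw Ct also moves with the amount of RNA recovered from each serum. An assay's level was therefore its own Ct taken from a panel mean, the average over the 252 miRNA assays that every mouse gave a value for. Levels are on a log2 scale, and higher means more RNA. Between 312 and 356 miRNA assays were detected per mouse, and no Ct in the table reached 37. The mean Ct of the 252 assays was 27.0 to 30.0 in wild-type, 28.1 to 30.5 in tumor-free and 28.0 to 31.7 in tumor mice. miR-122-5p of hepatocytes and miR-451a of red blood cells were detected in all mice. By the last decimals of their values the assays fall in sets of 245 and 120, taken here as the 2 plates of the panel. The mouse miR-802-5p assay lay in the first and the rat assay in the second. In tumor-free replicates 4, 5 and 7 and tumor replicate 1 the values had 1 ending only, so those 4 samples stand apart in how their values were written. Tumor replicate 5 has a question mark in its label and was analysed as labelled.

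The mouse assay was detected in all 17 sera. Its Ct was 25.5, 27.7 and 29.1 in the wild-type mice. It was 27.9, 30.4, 27.0, 28.1, 30.3, 28.8 and 28.4 in the tumor-free mice. It was 33.7, 30.8, 30.9, 32.6, 30.0, 30.6 and 28.8 in the tumor mice. In raw Ct the groups overlapped: 5 of 7 tumor mice had less miR-802-5p than every tumor-free mouse, and 6 of 7 had less than every wild-type mouse.

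On the level scale the separation was complete. Levels were 1.52, 0.47 and 0.87 in wild-type mice. They were 0.21, 0.11, 1.68, 1.17, 0.034, 0.79 and 0.79 in tumor-free mice, and -2.06, -0.68, -1.15, -2.32, -1.29, -0.83 and -0.84 in tumor mice. Every tumor mouse was below every other mouse, while tumor-free and wild-type mice overlapped, with 3 of 7 tumor-free mice below all wild-type mice. The order of the group means was wild type at 0.95 ± 0.53 (SD, n = 3), tumor-free at 0.68 ± 0.61 (n = 7) and tumor at -1.31 ± 0.64 (n = 7). The first 2 of these neighbors lay within each other's spread.

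**Figure D1:**
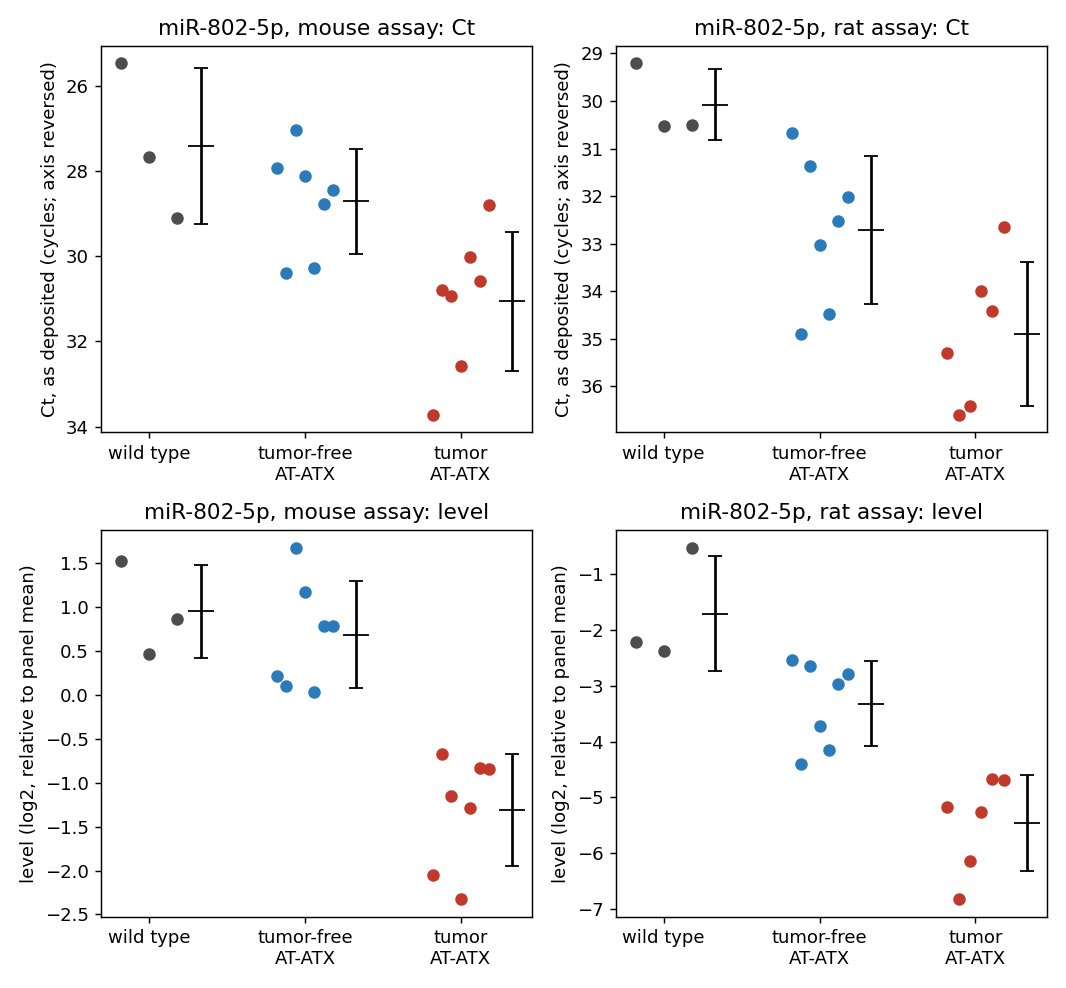
Ct as deposited (top, axis reversed so that more RNA is higher) and level (bottom, log2) of miR-802-5p in each mouse, for the mouse assay (left) and the rat assay (right). Points are mice and the bars beside them are the group mean ± SD; the 7 tumor mice lie between -2.32 and -0.68 on the mouse assay's level scale, below all 10 other mice.

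The rat assay crossed the threshold later. Its Ct was 29.2, 30.5 and 30.5 in wild-type mice. It was 30.7, 34.9, 31.4, 33.03, 34.5, 32.5 and 32.0 in tumor-free mice. In tumor replicates 2 to 7 it was 35.3, 36.6, 36.4, 34.0, 34.4 and 32.6, and tumor replicate 1 gave no value. That mouse also had the highest mouse-assay Ct, the highest mean Ct and the fewest assays detected of the 17. Every wild-type mouse gave an earlier rat-assay Ct than every AT-ATX mouse that had a value. Raw Ct moved the same way over the panel. The median raw difference from wild type over all tested assays was -1.07 in tumor-free and -1.22 in tumor mice (log2, below 0 for less RNA). Tumor and tumor-free mice overlapped in rat-assay Ct, with 3 of 6 tumor mice later than every tumor-free mouse.

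Rat-assay levels were -2.21, -2.38 and -0.52 in wild-type mice. They were -2.54, -4.40, -2.65, -3.73, -4.16, -2.97 and -2.78 in tumor-free mice, and -5.17, -6.83, -6.15, -5.27, -4.67 and -4.69 in tumor replicates 2 to 7. Here the 3 groups formed 3 steps with no overlap. The means were -1.70 ± 1.03 (SD, n = 3) in wild-type, -3.32 ± 0.76 (n = 7) in tumor-free and -5.46 ± 0.86 (n = 6) in tumor mice. Wild-type replicate 3 stood above the other two. At a Ct of 37, the unread tumor replicate 1 would have a level of -5.33, within the range of its group. If its signal came later than that, its level was lower than -5.33 and may lie below the group.

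Between tumor and tumor-free mice, both transgenic, miR-802-5p was lower with tumors by both assays. The difference was -1.99 (SE 0.37, 95% interval -2.77 to -1.22) by the mouse assay, 3.98-fold less. By the rat assay it was -2.15 (SE 0.47, 95% interval -3.14 to -1.15), 4.42-fold less, with the unread mouse left out of the fit. Of the 338 assays fitted in this comparison, 5 passed, 1.48% of them, and 4 of these were lower, 1.18%. For 3, or 0.888%, every tumor mouse was below every tumor-free mouse. Both miR-802-5p assays belong to each of these counts, which follows from how they were chosen. The remaining assays that passed were miR-192-3p (-1.86, adjusted p = 0.0128) and miR-455-3p (-2.67, adjusted p = 0.0200), both lower, and miR-339-3p (1.15, adjusted p = 0.0428), which was higher. In limma 0 of 338 assays passed with the label number as a block (20 at an unadjusted p under 0.05), and 0 passed on 3 of the other scalings. These adjusted p-values, like those below for single miRNAs, are from limma with Benjamini-Hochberg adjustment over the 338 assays. In serum, fewer cells releasing an RNA and less RNA released per cell cannot be told apart.

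The tumor against tumor-free difference of miR-802-5p was then set beside the other properties of the samples. Red blood cell miRNAs were measured through 4 assays (miR-451a, miR-144-3p, miR-16-5p and miR-92a-3p). Their mean level ran from 6.86 to 8.66 in tumor-free and from 6.38 to 9.63 in tumor mice, and 0 of 4 passed or were at an unadjusted p under 0.05, where 1.48% and 16.9% of all assays did. With a hemolysis index as a covariate (miR-23a-3p Ct less miR-451a Ct), the difference was -2.09 by the mouse and -2.18 by the rat assay. Without the 4 mice with 1 decimal ending it was -1.86 and -2.31. Within those 4, tumor replicate 1 at -2.06 lay below tumor-free replicates 4, 5 and 7 at 1.17, 0.034 and 0.79 by the mouse assay.

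Numbers in the animal labels were shared between tumor and tumor-free mice in 2 cases, and what the number stands for is not stated. Number 77 named 2 tumor mice and 1 tumor-free mouse, which differed by -1.02 in the mouse assay and by -1.60 in the rat assay. Number 85 named 1 tumor and 2 tumor-free mice, which differed by -2.93 and -2.21. The direction was the same within both numbers. With the number as a block, transgenic mice only, the difference was -1.97 by the mouse and -1.91 by the rat assay. Only numbers 77 and 85 hold both groups, so this fit rests on those mice alone and restates the differences just given.

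The comparison of tumor mice with wild-type mice uses the same tumor values on which the assays were chosen, so it too is given as a description, without a p. In the mouse assay the difference was -2.26 on the log2 scale (SE 0.48, 95% interval -3.26 to -1.26), 4.80-fold less, with 7 of 7 tumor mice below all 3 wild-type mice. In the rat assay it was -3.76 (SE 0.60, 95% interval -5.02 to -2.50), 13.5-fold less, with 6 of 6 detected tumor mice below. Among the 338 assays, 28 passed in this comparison, which is 8.28%, and 14 of them were lower, 4.14%. No overlap in the lower direction was found for 13 assays, 3.85%. Over the alternatives run the mouse-assay difference ranged from -3.64 to -1.99 and the rat-assay difference from -4.82 to -3.20.

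Tumor-free AT-ATX mice were also compared with wild-type mice, a comparison without tumors. Strain background, age and sex of the AT-ATX mice are not given, so these cannot be told apart from the transgene here. The assays differed here. By the mouse assay the difference was -0.27 (SE 0.48, 95% interval -1.27 to 0.73). An effect of up to 1.27 in the lower direction lies inside that interval, so it does not show equal levels. By the rat assay tumor-free mice were at -1.61 relative to wild type (SE 0.59, 95% interval -2.85 to -0.38), and 7 of 7 lay below all 3 wild-type mice. Both differences are given as a description, without a p, because the tumor-free values were part of the choice of the assays. Choosing assays low in tumor mice relative to tumor-free mice favors high tumor-free values, which can move both differences upward. Neither the presence nor the absence of a difference from wild type is therefore concluded for either assay. In this comparison 2 of 338 assays passed, 0.592%, neither of them from the chosen pair, while 20, or 5.92%, had all tumor-free mice below all wild-type mice. The 2 comparisons with wild type also share the same 3 mice. Without wild-type replicate 3, the highest of the rat-assay levels, the rat-assay difference was -1.05. Without wild-type replicate 1 the mouse-assay difference was 0.00489.

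Because both assays were run on the same sera, the gap between them was compared across mice. The rat Ct exceeded the mouse Ct by 3.73, 2.85 and 1.39 cycles in wild-type mice. The gap was 2.75, 4.50, 4.33, 4.90, 4.19, 3.76 and 3.57 cycles in tumor-free mice and 4.50, 5.68, 3.83, 3.97, 3.84 and 3.85 cycles in tumor replicates 2 to 7. It was smaller in wild-type mice (2.66 ± 1.18 cycles, SD, n = 3) than in tumor-free (4.0 ± 0.71, n = 7) and tumor mice (4.28 ± 0.73, n = 6). All 6 tumor mice lay above all 3 wild-type mice, whereas tumor and tumor-free mice overlapped.

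The mean gap was compared between the 3 group pairs by two-sided exact permutation tests, adjusted over the 3. The gap is made from the same tumor and tumor-free Ct values on which the assays were chosen. The p-values of these tests are therefore no independent support, and nothing is concluded from passing or missing the threshold. Tumor mice exceeded wild-type mice by 1.62 cycles (exact p = 0.0119, the smallest this design allows, adjusted p = 0.0357). Tumor-free mice exceeded wild-type mice by 1.35 cycles (exact p = 0.0583, adjusted p = 0.0875). Tumor and tumor-free mice differed by 0.28 cycles (exact p = 0.512), which decides nothing because both assays were chosen between these groups. The 2 assays lay on different plates, so the gap was also taken after each Ct was set against the mean of its own plate. The mean gap of the plates was 2.45 ± 0.34 cycles (SD, n = 3) in wild-type, 2.44 ± 0.47 (n = 7) in tumor-free and 2.66 ± 0.38 (n = 7) in tumor mice. The differences in assay gap were then 1.44 cycles for tumor against wild type and 1.35 for tumor-free against wild type, each at adjusted p = 0.05 by the exact permutation test. The first was thus no longer past the threshold, and the second had not passed before. In the tumor against wild-type comparison, leaving out wild-type replicate 3 reduced the gap difference to 0.99 cycles. Without tumor-free replicate 1 the tumor-free against wild-type difference was 1.55 cycles and passed (exact permutation test, adjusted p = 0.0357).

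**Figure D2:**
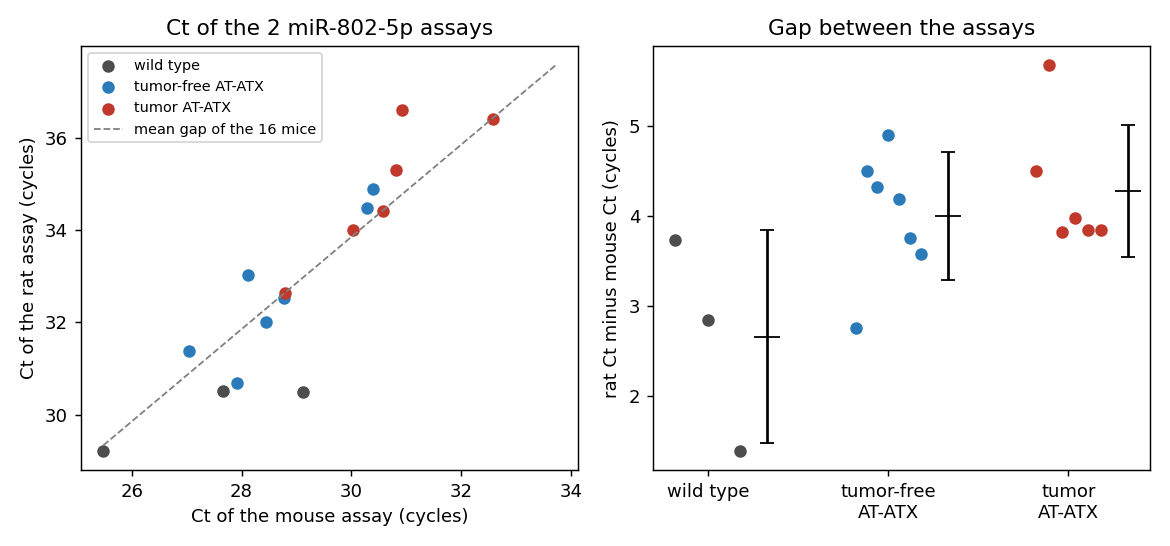
Left, Ct of the rat assay against Ct of the mouse assay in the 16 mice read by both, with a dashed line at their mean gap of 3.85 cycles. Right, rat Ct minus mouse Ct in cycles by group, with points for mice and bars for mean ± SD; wild-type replicate 3 has the smallest gap at 1.39 cycles and tumor replicate 3 the largest at 5.68.

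A gap of this size was uncommon among same-named mouse and rat assays on the panel. Of 20 such pairs, miR-802-5p had a mean gap of 3.85 cycles over 16 mice, and 1 other pair, miR-200b-3p at 3.92 cycles, was larger. The median size over the other 19 pairs was 0.676 cycles. For 5 of the 20 pairs, miR-802-5p among them, the partners lay on different plates. The mean gap of the others was -0.44 cycles for miR-324-3p, 0.71 for miR-351-5p, -0.38 for miR-511-5p and 0.58 for miR-532-5p. The tumor against wild-type change in gap ran from -0.76 to 2.17 cycles over the other 19 pairs, with 1 larger than that of miR-802-5p, miR-208a-3p of heart muscle.

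The levels of the 2 assays were also compared within each AT-ATX group, the mice on which the assays were chosen. Over the 7 tumor-free mice, Pearson's r between the 2 levels was 0.49 (exact permutation p = 0.265) and Spearman's rho was 0.50 (exact permutation p = 0.267). Without the 2 mice farthest from the median of the mouse assay these were 0.12 and 0.10. Over the 6 tumor mice with both values r was 0.55 (exact permutation p = 0.414) and rho 0.66 (exact permutation p = 0.175), and without 2 mice 0.60 and 0.80. None of these 4 relations passed adjustment, with adjusted p from 0.356 to 0.414. With 6 or 7 mice these tests cannot decide how closely the assays follow each other within a group. Both levels of a mouse share its panel mean.

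The scale on which Ct values are compared moved all assays together, most of all against wild type. The median over all 338 assays of the tumor-free minus wild-type difference was 0.027 on the panel mean, 0.54 on the 5 reference miRNAs, -1.07 on raw Ct and -1.19 on the spiked-in RNAs. Relative to that median, which takes off the shared shift, the mouse assay stood at -0.30, -0.32, -0.22 and -0.23 in the same order, and the rat assay at -1.64, -1.67, -1.57 and -1.57. The sign of the unadjusted mouse-assay difference turned on the reference miRNAs, at 0.21.

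For the tumor against tumor-free comparison, the median of all assays was 0.14 on the panel mean, 0.26 on the panel median, -0.27 on the reference miRNAs, -0.24 on raw Ct and -0.0037 on the spiked-in RNAs. Relative to it, miR-802-5p was at -2.13, -2.13, -2.13, -2.12 and -2.12 by the mouse assay. By the rat assay it was at -2.28, -2.28, -2.38, -1.95 and -1.92. Taking off the median cancels a shift shared by all assays, so the mouse-assay values are close by construction. The rat-assay values leave out tumor replicate 1, so the shift of that mouse does not cancel in them, and they spread more.

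**Figure D3:**
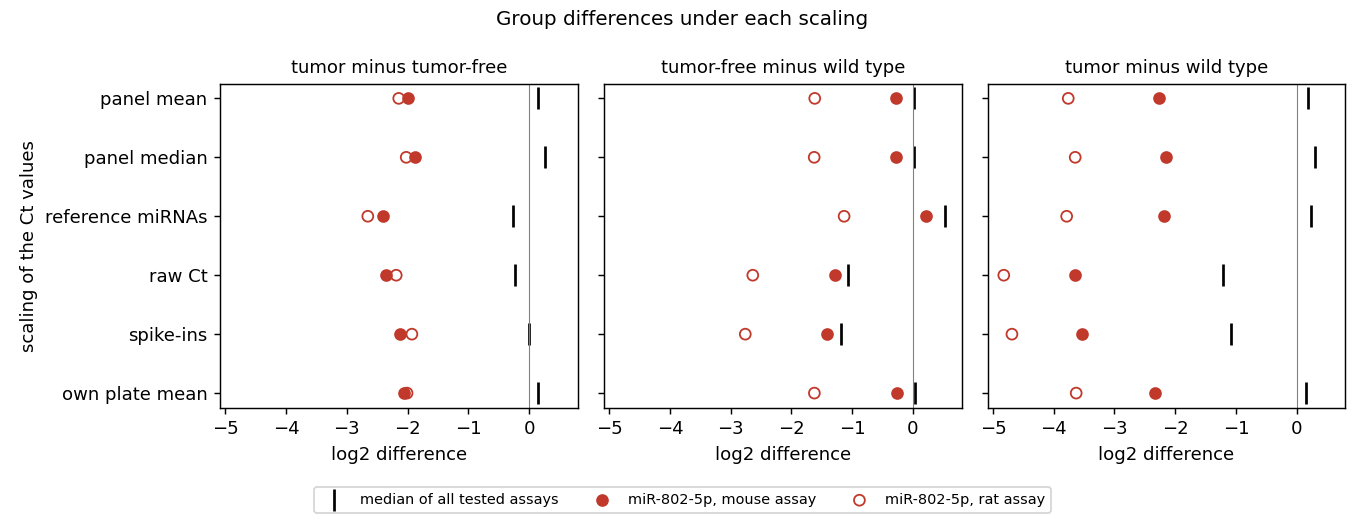
Group differences (log2) of the mouse assay (filled circles) and the rat assay (open circles) of miR-802-5p under 6 ways of scaling the Ct values, with the median of all tested assays as a black bar. Apart from the own-plate mean, which has a separate term for each plate, circles and bar shift mostly together from scale to scale. The filled circles lie at -2.21 to -2.12 from the bar in the tumor against tumor-free panel. In the tumor-free against wild-type panel they lie at -0.32 to -0.22 from it.

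Liver miRNAs were compared next, from a list of 11 that leaves out miR-802-5p: miR-122-5p, both arms of miR-192, miR-194-5p, miR-148a-3p, miR-101a-3p, miR-101b-3p, miR-193a-3p, miR-365-3p, miR-33-5p and miR-215-5p. All 11 were tested. Between tumor and tumor-free mice 10 of 11 lay below 0, against 44.4% of all assays, with a median of -0.94 against 0.14 over all assays. Of the list 1, miR-192-3p, passed, against 1.48% of all assays. At an unadjusted p under 0.05 there were 6, against 16.9% of all assays. The mean level of the list was 1.83 to 2.91 in tumor-free and 0.98 to 1.95 in tumor mice, which overlap at the edge.

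Among the members that did not pass, miR-215-5p was at -2.26 (adjusted p = 0.179), miR-122-5p at -1.63 (adjusted p = 0.123) and miR-194-5p at -1.39 (adjusted p = 0.135) in limma. miR-122-5p is the most abundant miRNA of hepatocytes and is used as a serum marker of liver injury. miR-192 and miR-194 are made from shared transcripts in liver and gut. Against wild type, the list in tumor mice had a median of -1.25, with 4 of 11 lower and past the threshold: miR-194-5p, miR-101b-3p and both arms of miR-192. Over all assays 4.14% were lower and past it. In tumor-free mice against wild type the median was -0.12, with 6 of 11 below 0 and 0 passing in limma, 3 at an unadjusted p under 0.05. Over all assays 49.1% were below 0, 0.592% passed and 22.5% were at an unadjusted p under 0.05, so these counts are near the background. The list median was 0.36 on the reference miRNAs, where that of all assays was 0.54, and it turned to 0.28 without wild-type replicate 1 and to 0.011 without tumor-free replicate 5.

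**Figure D4:**
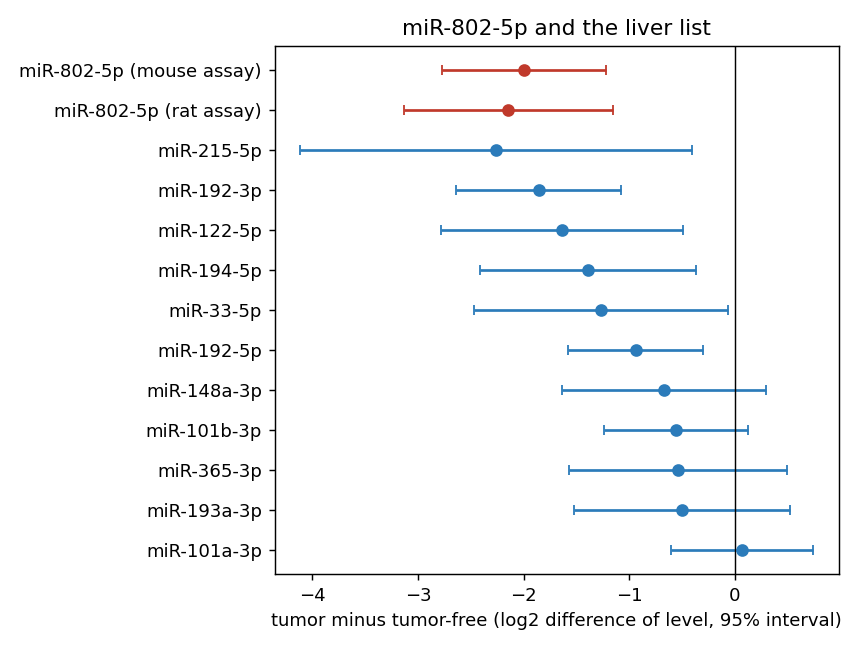
Tumor minus tumor-free difference of level (log2) with its 95% interval for the 2 miR-802-5p assays (red) and the 11 liver miRNAs (blue), in order of size. The miR-802-5p intervals run from -3.14 to -1.15 at their widest, and the liver list runs from -2.26 for miR-215-5p to 0.068 for miR-101a-3p.

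Serum miR-802-5p was then set against miR-122-5p mouse by mouse. The level of miR-802-5p minus that of miR-122-5p was -7.18 ± 0.49 (SD, n = 3) in wild-type, -7.33 ± 0.41 (n = 7) in tumor-free and -7.69 ± 1.03 (n = 7) in tumor mice. Tumor and tumor-free mice differed by -0.36 in this ratio. Tumor replicate 5 stood apart with a ratio of -9.78, while the other 6 tumor mice ran from -7.87 to -6.71. Tumor replicate 5 had a miR-122-5p level of 8.48, in the range of the tumor-free mice, with miR-802-5p at -1.29. Without it the difference between the groups was -0.013. With any other AT-ATX mouse left out the difference ran from -0.52 to -0.24. Without the 4 mice with 1 decimal ending it was -0.55. Being within an assay pair, this ratio does not depend on the scale chosen, and it compares change, not amounts, since PCR efficiency differs between assays.

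**Figure D5:**
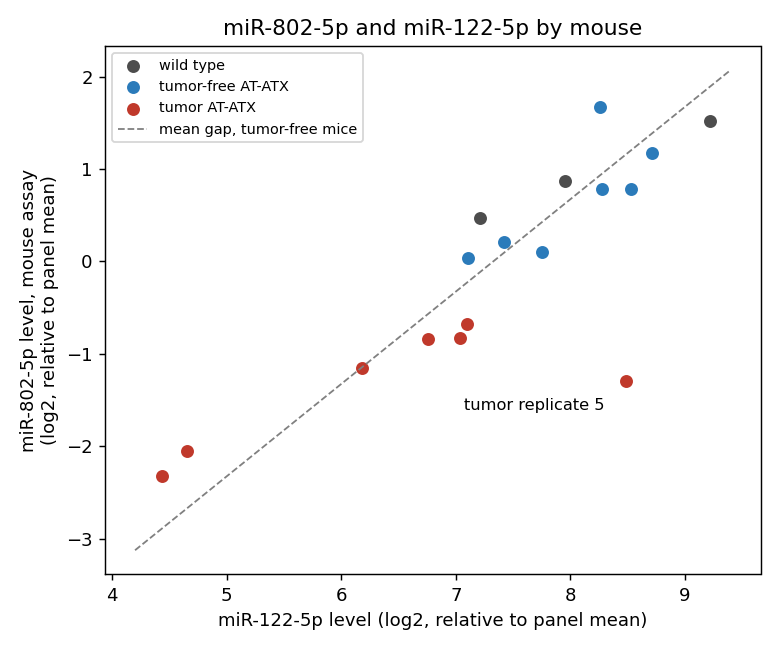
Level of miR-802-5p by the mouse assay against the level of miR-122-5p (both log2, relative to the panel mean) in each of 17 mice, colored by group, with a dashed line at the mean gap of the tumor-free mice. Tumor replicate 5 lies far below the line, at 8.48 for miR-122-5p and -1.29 for miR-802-5p.

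The ratios to miR-192-5p and miR-194-5p were taken in the same way, and the 3 ratios were not tested against each other. miR-802-5p minus miR-192-5p was -4.95 ± 0.17 (SD, n = 3) in wild-type, -4.59 ± 0.46 (n = 7) in tumor-free and -5.65 ± 0.97 (n = 7) in tumor mice. The difference with tumors was -1.05, and -1.03 without tumor replicate 5. miR-802-5p minus miR-194-5p differed by -0.61 between tumor and tumor-free mice, and by -0.23 without tumor replicate 5. The number of tumor mice below every tumor-free mouse was 3 of 7 in the ratio to miR-122-5p, 3 of 7 in that to miR-192-5p and 4 of 7 in that to miR-194-5p, where 1 more lay above.

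Other organs in which miR-802 is made were covered by short lists. Of the pancreas miRNAs, 2 of 4 could be tested: miR-375-3p of islet cells was at -1.07 (adjusted p = 0.313) and miR-217-5p of acinar cells at -0.014 (adjusted p = 0.993) in limma between tumor and tumor-free mice. The latter turned to 0.12 on the panel median. The gut and kidney epithelium list, made of the miR-200 family with the 3 miRNAs of the miR-192, miR-194 and miR-215 genes, had 8 of 8 below 0, against 44.4% of all assays, and a median of -0.87. In limma 0 of 8 passed, and 3 were at an unadjusted p under 0.05, namely miR-215-5p, miR-194-5p and miR-192-5p, which are also on the liver list. Over all assays these shares were 1.48% and 16.9%.

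miRNAs encoded on the same chromosome as Mir802 were also read: let-7c-5p, miR-99a-5p, miR-125b-5p and miR-155-5p, the first 3 of which have further copies or close relatives elsewhere. They lay between -0.68 and -0.39 in tumor against tumor-free mice. In limma 0 of 4 passed, and 0 were at an unadjusted p under 0.05, near the 1.48% and 16.9% over all assays.

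The assays whose level ran most like that of miR-802-5p were found by Pearson's r over the 17 mice, among 251 other assays detected in all of them. The 5 highest were miR-122-5p (0.84), miR-455-3p (0.83), miR-31-5p (0.79), miR-194-5p (0.78) and the other arm of that miR-455 hairpin, miR-455-5p (0.77). At the other end were miR-2137 (-0.76), miR-423-5p (-0.68) and miR-21a-5p (-0.67). These values carry the difference between groups, and all levels of a mouse share its panel mean. With the group means subtracted, the order changed. The 5 highest were then miR-148a-3p (0.81), miR-29b-3p (0.80), miR-195a-5p (0.80), miR-125a-5p (0.79) and miR-99a-5p (0.78). miR-122-5p was sixth at 0.75, whereas miR-192-3p stood at -0.21 and miR-192-5p at 0.065. The 3 lowest were miR-17-3p (-0.82), miR-93-3p (-0.78) and miR-501-5p (-0.76), all on the second plate. The 5 highest were all on the first, the plate of the miR-802-5p mouse assay. Of the 252 assays detected in all mice, 178 were on the first plate and 74 on the second. The red blood cell miR-451a stood at -0.63 with the group means subtracted.

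By order of mean level among the 252 assays, the mouse assay ranked 85 in wild-type, 100 in tumor-free and 157 in tumor mice. In the tumor group its neighbors were the rat assays of miR-350 above and miR-322-3p below, at -1.26 and -1.33 against -1.31. Such ranks follow Ct and not molecule number, since assays differ in efficiency.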

How the data were processed

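Serum miRNA was profiled by SYBR Green real-time PCR, 1 sample per mouse. Per the labels' protocols, total RNA from 50 µL of serum taken at necropsy was made into cDNA and run for 40 cycles on 2 ready-made panel plates. The deposited values are Ct (quantification cycles), not normalized, on a cycle scale that is close to log2. The authors' threshold and detection limit are not stated in the labels. Empty cells were taken as not detected. Of 365 assays, 8 are controls.

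Levels (panel mean of 252 shared assays minus own Ct) were computed here. An assay was fitted if detected in at least 2 wild-type, 5 tumor-free and 5 tumor mice, which left 338. A linear model over all 3 groups was fitted in limma 3.58.1 under R 4.3.3 (lmFit, eBayes). Its two-sided p-values were adjusted within each comparison (Benjamini-Hochberg), with a threshold of 0.05. The fit was tested on simulated data. Assay gaps were compared by exact permutation tests (Python 3.11.15, numpy 2.4.6, pandas 2.3.3, scipy 1.17.1, with figures by matplotlib 3.10.9).

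The 2 miR-802-5p assays, the lists and the alternatives were chosen with earlier results of these data known, so no list pattern is independent support. Named miRNAs were the list members, those most and least like miR-802-5p, its neighbors in level, and others that passed between tumor and tumor-free mice. A list was described by counts and medians, without a test. Replicates are single mice numbered in accession order. p-values measure the spread between these mice, and with few mice and Ct values near the end of the run precision is limited. Alternatives covered the scaling, a Ct limit of 35, undetected values at 37, the filter, the variance model, hemolysis, the 4 single-ending samples and each mouse left out. The own-plate scaling and the settings of the ratio to miR-122-5p were added after seeing the data.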

Additional observations from a re-analysis of the deposited data

Results flagged for a closer look

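In 66 groups of 4 to 10 mice, the most extreme mouse was compared with the rest by Dixon's criterion, which chance alone meets in about 1 in 20 groups, and 8 groups met it. For the gap between the rat and mouse miR-802-5p assays, tumor replicate 3 stood apart at 5.68 cycles, with the other 5 tumor mice between 3.83 and 4.50. For the level of miR-802-5p minus that of miR-122-5p, tumor replicate 5, the mouse with a question mark in its label, stood apart at -9.78, with the others between -7.87 and -6.71. The same mouse stood apart for miR-215-5p, at -6.50 against -1.90 to 1.57 in the other tumor mice. Among the remaining liver miRNAs, miR-101a-3p was low in tumor replicate 1 at 2.23 and miR-193a-3p was low in tumor replicate 4 at -5.07. The epithelial miR-141-3p was low in tumor replicate 2 at -1.55. The acinar-cell miR-217-5p was high in tumor-free replicate 3 at -1.50, against -7.18 to -5.19 in the other 5 tumor-free mice that had a value. miR-155-5p was high in tumor-free replicate 7 at -1.83. Neither miR-802-5p assay had such a mouse in its own levels.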

How the results depend on the processing

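Both miR-802-5p assays were chosen for a low tumor minus tumor-free difference, so its sign under the alternatives is given as a description only. Changing the variance model or the detection filter cannot move the mouse-assay difference, which stayed at -1.99. The tumor minus tumor-free difference was below 0 under all 29 alternatives run for the mouse assay (-2.41 to -1.83) and all 27 for the rat assay (-2.65 to -1.87). Without 1 mouse at a time it ran from -2.10 to -1.83 and from -2.33 to -1.87. Against wild type, the mouse assay in tumor mice stayed below 0 under all 28 alternatives. It was -2.19 on the reference miRNAs and -3.53 on the spiked-in RNAs, and -2.50 to -1.99 without 1 mouse. The rat assay ran from -4.82 to -3.20 over 26 alternatives. In tumor-free mice the mouse assay turned to 0.21 on the reference miRNAs and ran from -0.51 to 0.00489 without 1 mouse, and the rat assay ran from -1.95 to -1.05. With a Ct limit of 35 the rat assay had too few tumor mice to be fitted.

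The tumor against wild-type gap between the assays was 1.44 cycles with the own-plate mean and 1.48 with the undetected value at 37, neither past the threshold. It was 1.23 with a Ct limit of 35, where the mice left were too few for the test to bear on the call. Without 1 mouse it ran from 0.99 to 2.16. In 8 of 17 such runs the mouse left out had no part in it, and it stayed at 1.62 and past the threshold. The other runs missed the threshold, and fewer mice also raise the smallest p the test can give. Without wild-type replicate 3 the difference itself shrank to 0.99 (exact permutation test, adjusted p = 0.321). The tumor against tumor-free gap turned to -0.11 with a Ct limit of 35 and ran from -0.0037 to 0.43 without 1 mouse, turning without tumor replicate 3. The tumor-free against wild-type gap ran from 0.71 to 1.88.

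The liver list median between tumor and tumor-free mice was -1.35 on the reference miRNAs and -1.30 on raw Ct, and -1.04 to -0.84 without 1 mouse. Between tumor-free and wild-type mice it was 0.36 on the reference miRNAs, -1.14 on raw Ct and -1.26 on the spiked-in RNAs, and -0.58 to 0.28 without 1 mouse. Between tumor and wild-type mice it was -2.63 on raw Ct and -2.52 on the spiked-in RNAs, and -1.53 to -1.04 without 1 mouse.

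Counts of assays passing moved more. Between tumor and tumor-free mice 5 passed, and 13 with the hemolysis index. In limma 0 passed on the reference miRNAs, raw Ct or spiked-in RNAs or without the 4 single-ending samples, with 44, 17, 14 and 29 at an unadjusted p under 0.05, and 0 with the label number as a block, with 20. Without 1 mouse 2 to 10 passed: the count was 2 with tumor replicate 3 or 4, or tumor-free replicate 1 or 6, left out, 3 with tumor-free replicate 3, 9 with tumor replicate 7 or tumor-free replicate 2, and 10 with tumor replicate 5 left out. Between tumor-free and wild-type mice 2 passed in limma, 0 on raw Ct or spiked-in RNAs (63 and 73 at an unadjusted p under 0.05), 1 on the panel median or reference miRNAs, with trend and robust variance or without the 4 samples, 4 with undetected values at 37, 5 with the hemolysis index, 7 with the own-plate mean, and 1 to 11 without 1 mouse, the highest without wild-type replicate 1. Between tumor and wild-type mice 28 passed, 9 on the reference miRNAs, 15 on raw Ct, 8 on the spiked-in RNAs, 14 without the 4 samples, and 8 (without wild-type replicate 3) to 49 (without tumor replicate 4) without 1 mouse.

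Of the single miRNAs between tumor and tumor-free mice, miR-101a-3p turned to -0.34, -0.29 and -0.058 on the reference miRNAs, raw Ct and spiked-in RNAs, where the median of all assays was -0.27, -0.24 and -0.0037, and ran from -0.057 to 0.26 without 1 mouse. miR-217-5p turned to 0.12 on the panel median, where that of all assays was 0.26, and ran from -0.39 to 0.75, and miR-200c-3p turned to 0.39 with undetected values at 37. miR-141-3p ran from -0.46 to 0.065 and miR-125b-5p from -0.79 to 0.0095 without 1 mouse. Scalings other than the own-plate mean move all assays of a mouse alike, list medians included. The cause of the other changes was not tested. No paired analysis was possible because the replicate numbers come from accession order, and nothing in the labels says that the suffixes of the animal names, which recur within a group, pair mice. Animal numbers 77 and 85 are shared by tumor and tumor-free mice only. The fit with that number as a block covered transgenic mice only, and its difference came from the mice of those shared numbers alone.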
